A study of Mus musculus with 48 samples.

Results

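The 9 genes described here encode carriers that move organic anions and drugs into hepatocytes and out of them. They are the uptake transporters Slco1a1, Slco1a4, Slco1b2, Slco2b1 and Slc22a7 and the efflux transporters Abcc2, Abcg2, Abcc3 and Abcc4, and they were taken by gene symbol from the 55414 genes of the count table. The rule that names them uses no expression value, although it was set with earlier results of these data known, and all 9 passed the filter on low counts. Liver RNA of 48 mice of the FCG (core genotypes) model was sequenced, 1 library for every mouse, and each of the 8 groups held 6 mice. In this model the testis-determining gene Sry is lost from the Y chromosome (written Y-) and is supplied by an autosomal transgene, so that gonad type and sex chromosomes vary separately. The groups were XX and XY- mice with ovaries (Ov) and XX;SryTg and XY-;SryTg mice with testes (Te), either with intact gonads (Intact) or after gonadectomy (GDX). XY- is written XY below. All mice were on a C57BL/6 background and ate a high-fat diet (HFD, 60% of calories from fat) that was begun at 15 to 17 weeks of age. No chow-fed mice and no wild-type mice are among these samples. According to the labels the Intact mice received the HFD for 11 weeks, and the GDX mice, operated at 75 days of age, received it for 15 weeks. The study's methods give other durations for both cohorts, so the weeks of HFD are not certain, but in both sources the GDX mice received it for longer. Te mice of both chromosome types carry the transgene and Ov mice do not, so gonad type and the transgene cannot be told apart.

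Organic anion transporting polypeptides, encoded by the Slco genes, carry bile acids, steroid conjugates, thyroid hormones and many drugs across the sinusoidal membrane into the hepatocyte. Slc22a7 (OAT2), of the organic anion transporter family, is a second sinusoidal uptake route, known for nucleotides and small anions. On the other side of the cell, Abcc2 (MRP2) and Abcg2 (BCRP) use ATP to export glucuronide and sulfate conjugates through the canalicular membrane into bile. Abcc3 (MRP3) and Abcc4 (MRP4) export conjugates and bile acids back across the basolateral membrane into blood, and they are known to increase in cholestasis. In rodent liver, Slco1a1 is a classic male-predominant gene, and the pituitary pattern of growth hormone secretion, which sex steroids shape, is the known route by which such genes differ between the sexes.

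Slco1a1, Slco1a4 and Slco1b2 lie next to each other on chromosome 6, in the order Slco1b2, Slco1a4, Slco1a1, and their levels moved in different ways across the groups. The 250 bases upstream of their RefSeq transcription starts are therefore shown together, read 5′ to 3′ on the strand of each gene (build GRCm38.p6), as chr6:141946963-141947212 on the minus strand for Slco1a1, chr6:141856221-141856470 on the minus strand for Slco1a4 and chr6:141629268-141629517 on the plus strand for Slco1b2. Capitals mark every match, on either strand, to the CCAAT box bound by NF-Y, to the STAT5 motif TTCNNNGAA, to the core HNF1 motif GTTAAT and to the core nuclear receptor motif AGGTCA.
Slco1a1: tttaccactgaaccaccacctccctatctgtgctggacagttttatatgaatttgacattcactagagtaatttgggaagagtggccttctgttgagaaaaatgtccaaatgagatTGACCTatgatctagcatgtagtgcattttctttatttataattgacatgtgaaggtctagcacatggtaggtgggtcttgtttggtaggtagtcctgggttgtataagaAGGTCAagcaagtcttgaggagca
Slco1a4: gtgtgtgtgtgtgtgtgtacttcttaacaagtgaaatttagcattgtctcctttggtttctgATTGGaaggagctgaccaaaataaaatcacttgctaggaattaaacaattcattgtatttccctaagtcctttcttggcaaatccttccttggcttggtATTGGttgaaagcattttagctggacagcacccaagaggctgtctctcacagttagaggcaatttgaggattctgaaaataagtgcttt
Slco1b2: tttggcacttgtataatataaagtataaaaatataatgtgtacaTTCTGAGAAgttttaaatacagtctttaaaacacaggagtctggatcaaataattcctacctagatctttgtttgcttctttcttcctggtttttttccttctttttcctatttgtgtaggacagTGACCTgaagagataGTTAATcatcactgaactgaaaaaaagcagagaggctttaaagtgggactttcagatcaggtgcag
The windows shared few of these letters. The Slco1a1 window held 2 nuclear receptor motifs and none of the other motifs. The Slco1a4 window held 2 CCAAT boxes, both in reverse, and none of the others. The Slco1b2 window held 1 STAT5 motif, 1 HNF1 motif and 1 nuclear receptor motif, none of which overlapped. Among 32851 RefSeq promoter windows of the same length, CCAAT was present in 33.85%, TTCNNNGAA in 7.02%, GTTAAT in 6.432% and AGGTCA in 14.024%. A match describes the letters of the window and is not a shown binding site.

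Between 13071874 and 20045141 reads of a mouse fell on genes. Levels are given as CPM, the usual read count relative to library size, with library sizes scaled by the trimmed mean of M values. A floor of 3 reads corresponded to at most 0.230 CPM, which covers counting error only. The hepatocyte markers Alb, Apoa1, Ttr, Serpina1c and Tat summed to between 58206 and 135970 CPM in every library. The kidney markers Umod and Slc34a1 did not exceed 0.335 CPM, while Kap reached 4.31 CPM. The sum over the kidney markers was highest in XY Ov Intact mouse 53085, at 4.69 CPM. The Intact and GDX libraries differed in make-up as well as in surgery and weeks of HFD. Reads outside genes made up 3.47% to 6.20% of the Intact and 8.52% to 11.3% of the GDX libraries, and reads matching several places 10.7% to 18.9% and 8.59% to 10.8%. The HFD was begun at 15 to 17 weeks of age in both cohorts, so by the labels the GDX mice were also older at its end. Gonadectomy, weeks of HFD, age and library make-up therefore cannot be told apart wherever GDX mice are set against Intact mice. The libraries least like those of their own group were XX Ov Intact mouse 97856, XY Te Intact mouse 89033 and XX Ov Intact mouse 69572 (median r to the other libraries of the group 0.948, 0.951 and 0.953). All counts below were repeated without these 3 mice.

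Slco1b2, a hepatic uptake carrier for bilirubin, bile acids and statins, was the most abundant of the 9 transcripts when levels were divided by exon length. Its median over the 48 mice was 298 CPM per kilobase, against 116 for Abcc2, 53.5 for Abcc3, 33.3 for Slco1a4, 27.3 for Slco2b1, 13.96 for Abcg2, 3.79 for Slc22a7, 1.36 for Slco1a1 and 1.24 for Abcc4 (exon lengths of the NCBIM37 annotation, which is not the authors' build). Slco1a1 was also the transcript that varied most, and it reached 211 CPM per kilobase in 1 mouse. By group means it ranked 2 of 9 in XY Te Intact (132 CPM per kilobase) and 3 of 9 in XX Te Intact mice (60.2), and 7 to 9 in the other groups. Read counts were lowest for Slco1a1 (median 114.5 reads per mouse, 42 to 14309), Abcc4 (median 124.5, 31 to 293) and Slc22a7 (median 138, 22 to 432), and highest for Slco1b2 (15841 to 44598). The highest group median exceeded the lowest 227.9 times for Slco1a1, 5.55 times for Slco1a4, 4.79 times for Slc22a7, 3.50 times for Abcg2, 3.23 times for Abcc4, 2.88 times for Abcc3, 2.41 times for Abcc2, 1.79 times for Slco1b2 and 1.58 times for Slco2b1. When the 8 groups were put in order of their medians, neighbouring groups overlapped in all 7 pairs for each of 8 genes. The exception was Abcg2, in which the lowest of the Te Intact mice lay above the highest of every other group.

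**Figure D1:**
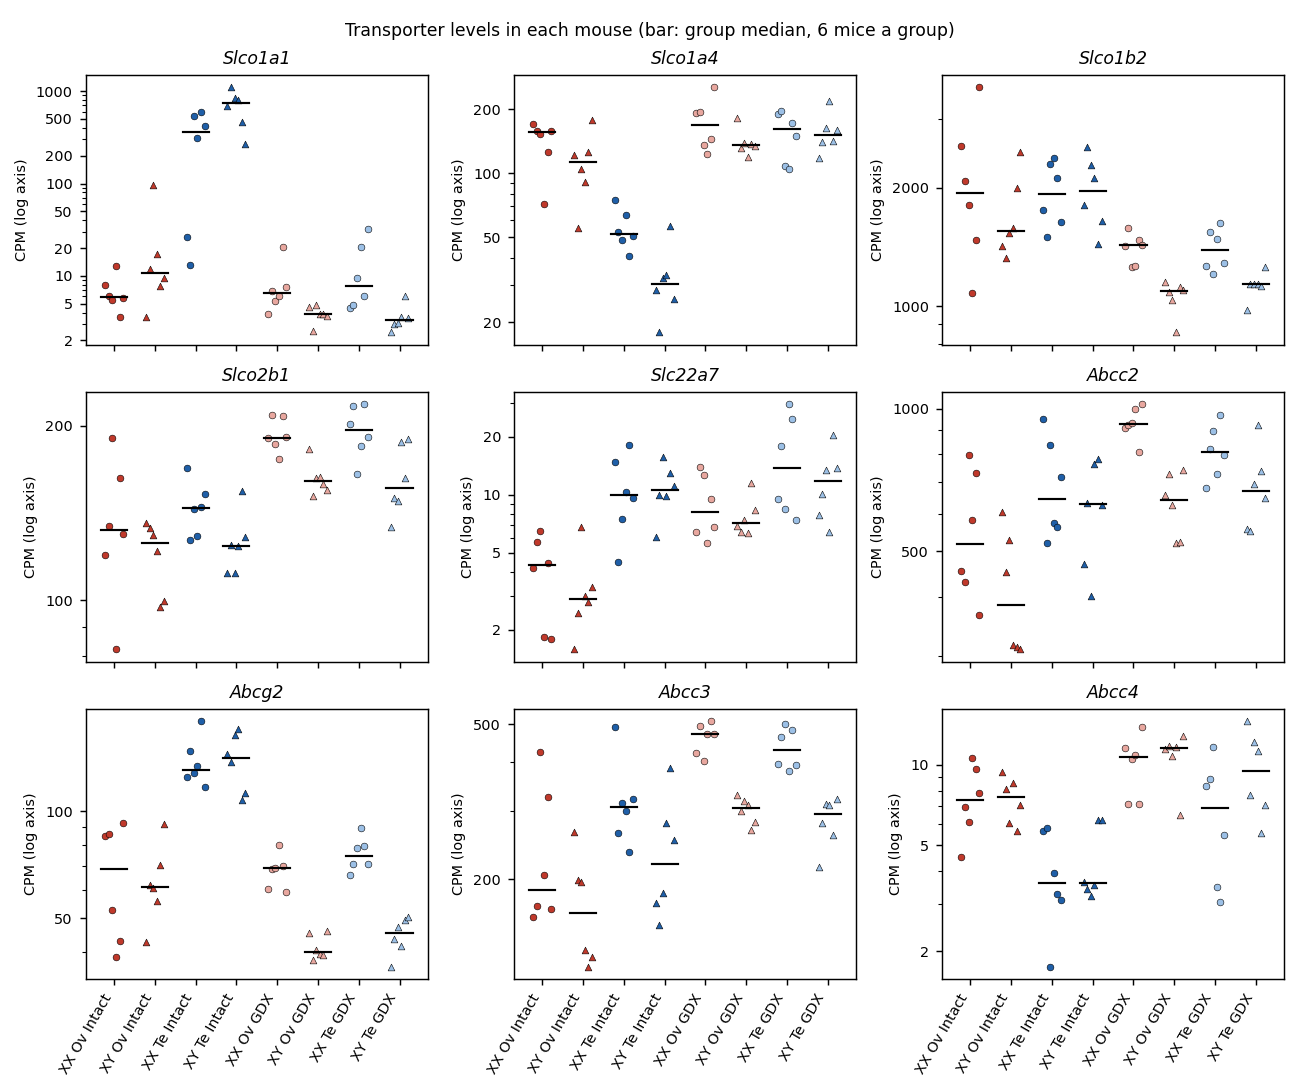
Levels of the 9 transporters in each of the 48 mice, in CPM on log axes, with a panel per gene and a column per group (circles XX, triangles XY, red Ov, blue Te, pale colours GDX). Black bars are medians of 6 mice. Slco1a1 was above 96.9 CPM only in Te Intact mice, with 2 XX Te Intact mice at 13.0 and 26.0 CPM, and Slco1a4 and Abcg2 separated Te Intact from Te GDX mice in opposite directions.

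For the gonadal effect, 12 Ov Intact mice were set against 12 Te Intact mice, which asks which transporters differ with the gonads present. With ovaries, Slco1a1, Slc22a7, Abcg2, Abcc2 and Abcc3 were lower and Slco1a4 and Abcc4 were higher, so that 7 of the 9 passed (quasi-likelihood test of edgeR, Benjamini-Hochberg adjusted p under 0.05 over 15414 genes). Of all genes tested, 25.3% passed, 14.1% higher and 11.3% lower in Ov Intact mice. Slco1b2 and Slco2b1 did not pass, with log2 fold changes of -0.05 ± 0.12 and -0.08 ± 0.09, although with 1 surrogate variable Slco1b2 did (-0.24, adjusted p = 0.0153). The median log2 fold change of the 9 was -0.42, beside 0.04 over all genes tested.

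Slco1a1, an uptake carrier for bile acids and steroid sulfates, had the widest gap. In XY Te Intact mice it ranged from 268 to 1115 CPM with a median of 749.9 CPM, and in XX Te Intact mice from 13.0 to 601 CPM with a median of 365 CPM. In Ov Intact mice it ranged from 3.61 to 12.8 CPM (median 5.87) with XX and from 3.61 to 96.9 CPM (median 10.7) with XY chromosomes. Of the 12 Te Intact mice, 10 lay above every Ov Intact mouse. The other two were XX mice, 11587 at 26.0 CPM and 14614 at 13.0 CPM, and both lay below XY Ov Intact mouse 53085, at 96.9 CPM. The next highest Ov Intact mouse, at 17.1 CPM, lay between them. Slco1a1 was lower in Ov Intact mice by a log2 fold change of -5.17 ± 0.51 (SE, adjusted p = 1.10e-10), with -5.51 ± 0.74 in XX and -4.83 ± 0.71 in XY mice (adjusted p = 7.52e-07 and 3.26e-06), and within each chromosome type the 6 Ov and 6 Te mice did not overlap. That held for 2 of the 9 transporters, Slco1a1 and Abcg2, in XX as in XY mice, beside 1.91% and 3.98% of all genes tested. The XX mice with low Slco1a1 did not have low Abcg2, at 125 and 148 CPM, which lay inside the Te Intact range. Among Te Intact mice, 14614 had the highest marker sums for bile duct cells (126 CPM, median 30.3) and Kupffer cells (652 CPM, median 291). Its marker sum for lymphocytes (5.53 CPM, median 2.24) was also the highest of the Te Intact mice. Mouse 11587 was highest for none of these cell types. The part of these cells in the Slco1a1 value of 14614 was not tested.

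Slco1a4, an uptake carrier for bile acids, digoxin and steroid conjugates, ran the other way. It ranged from 71.4 to 171 CPM (median 156) in XX Ov Intact and from 55.5 to 177 CPM (median 113) in XY Ov Intact mice. In Te Intact mice it ranged from 40.7 to 74.8 CPM (median 51.9) with XX and from 17.9 to 56.8 CPM (median 30.3) with XY chromosomes. The groups overlapped, and 10 of the 12 Ov Intact mice lay above every Te Intact mouse. The log2 fold change was 1.56 ± 0.17 (adjusted p = 7.18e-10). The other Slco1 genes of the same stretch, Slco1a5, Slco1a6 and Slco1c1, did not exceed 0.131, 0.181 and 0.243 CPM in any mouse and were not tested.

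The log2 ratio of Slco1a1 to Slco1a4 within a mouse does not depend on library scaling. It ranged from 3.02 to 5.96 in XY Te Intact and from -2.02 to 3.88 in XX Te Intact mice. In Ov Intact mice it lay between -5.12 and -2.48 with XX and between -5.07 and -0.11 with XY chromosomes, and in GDX mice between -5.93 and -2.21. The plot of both genes by mouse shows the 10 Te Intact mice with high Slco1a1 and low Slco1a4 apart from the rest, and XX Te Intact mice 11587 and 14614, with ratios of -1.52 and -2.02, near the Ov mice.

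**Figure D2:**
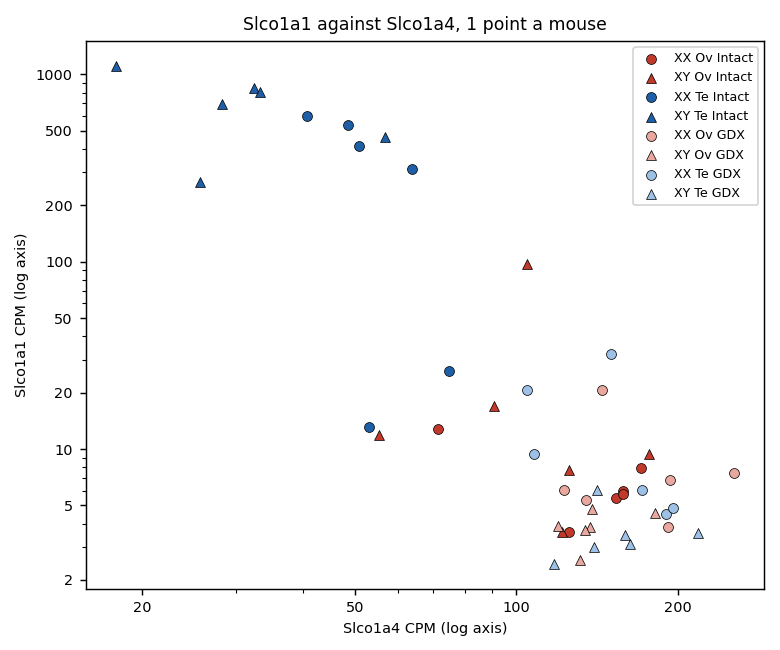
Slco1a1 against Slco1a4 in CPM on log axes, 1 point a mouse, coloured by gonad and surgery (circles XX, triangles XY, pale colours GDX). Of the 12 Te Intact mice, 10 lie at the upper left, and the 24 GDX mice lie at the lower right, with Slco1a1 between 2.44 and 32.4 CPM.

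Slc22a7 was a low transcript that was lower with ovaries. It ranged from 1.78 to 6.52 CPM (median 4.32) in XX Ov Intact and from 1.58 to 6.85 CPM (median 2.88) in XY Ov Intact mice, against 4.50 to 18.2 CPM (median 9.97) in XX Te Intact and 6.08 to 15.8 CPM (median 10.6) in XY Te Intact mice. Of the 12 Te Intact mice, 10 lay above every Ov Intact mouse. The log2 fold change was -1.55 ± 0.26 (adjusted p = 1.44e-05). Slco1b2 and Slco2b1, the carrier for sulfated steroids, gave values that overlapped widely. Slco1b2 ranged from 1077 to 3615 CPM in Ov Intact and from 1442 to 2547 CPM in Te Intact mice (adjusted p = 0.810), and Slco2b1 from 82.1 to 191 CPM and from 111 to 169 CPM (adjusted p = 0.520).

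Both canalicular pumps were lower with ovaries. Abcg2 ranged from 38.8 to 92.8 CPM (median 68.8) in XX Ov Intact and from 42.9 to 92.1 CPM (median 61.2) in XY Ov Intact mice. In Te Intact mice it ranged from 117 to 179 CPM (median 131) with XX and from 107 to 171 CPM (median 141) with XY chromosomes. All 12 Te Intact mice lay above all 12 Ov Intact mice, which held for 1 of the 9 transporters and for 0.597% of all genes tested. The log2 fold change was -1.09 ± 0.12 (adjusted p = 7.17e-10). Abcc2 ranged from 310.3 to 797 CPM (median 454) in Ov Intact and from 402 to 952 CPM (median 629) in Te Intact mice, with a log2 fold change of -0.42 ± 0.13 (adjusted p = 0.0144).

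Of the basolateral exporters, Abcc3 was lower and Abcc4 higher with ovaries. Abcc3 ranged from 119 to 424 CPM (median 184) in Ov Intact and from 152 to 491 CPM (median 271) in Te Intact mice, with a log2 fold change of -0.43 ± 0.15 (adjusted p = 0.0270). Abcc4 ranged from 4.52 to 10.6 CPM (median 7.46) in Ov Intact and from 1.75 to 6.20 CPM (median 3.59) in Te Intact mice, with a log2 fold change of 0.86 ± 0.20 (adjusted p = 0.00128). Abcc4 is also expressed by blood cells, and immune cell markers moved in the same direction. Of 5 Kupffer cell markers 3 were higher in Ov Intact mice, and their sum ranged from 249.6 to 963 CPM in Ov Intact and from 205 to 652 CPM in Te Intact mice. Of 4 lymphocyte markers 3 were higher, with sums of 1.49 to 16.5 CPM and 1.07 to 5.53 CPM. The defining T cell marker Cd3e had medians of 0.892 and 0.133 CPM, the second of which lies under the floor of at most 0.230 CPM. Of 3 neutrophil markers none passed, with sums of 1.66 to 781 CPM and 1.52 to 116 CPM. In bulk liver, fewer cells of a type and less RNA per cell cannot be told apart, and the part of these cells in the Abcc4 values was not tested.

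The calls for Slco1a1, Slco1a4, Slc22a7, Abcg2 and Abcc4 held under each of the 9 alternatives and with each mouse left out, whereas those for Abcc2 and Abcc3 were lost with library totals (adjusted p = 0.0565 and 0.0732) and in a fit of the Intact arms alone (adjusted p = 0.0956 and 0.152). The Abcc3 call was also lost in 6 of the 48 fits without 1 mouse (adjusted p up to 0.0821). Within XX mice 5 of 9 passed, beside 5.82% of all genes, and within XY mice 5 of 9, beside 15.5%. Whether the gonadal effect differed between XX and XY mice was tested as an interaction, which passed for 0 of the 9 transporters by edgeR and by DESeq2, for 0 at an unadjusted p under 0.05 and for 0% of all genes by edgeR. For Slco1a1 the difference of the effects was -0.69 ± 0.87 and for Slco1a4 -0.46 ± 0.32 on the log2 scale, so that the SE was larger than the difference for Slco1a1.

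After GDX, mice that had been born with ovaries and mice that had been born with testes were compared, 12 against 12. A comparison that does not pass here does not show that the gonadal difference was lost. Whether that difference changed between Intact and GDX mice is asked by the test of castration against ovariectomy given below. None of the 9 transporters passed (0 of 9 by edgeR and 0 of 9 by DESeq2), while 0.0908% of all genes did. At an unadjusted p under 0.05, 1 of 9 remained, Slc22a7, with 5.63 to 13.9 CPM in Ov GDX and 6.44 to 29.6 CPM in Te GDX mice and a log2 fold change of -0.72 ± 0.24 (adjusted p = 0.927). Slco1a1 ranged from 2.55 to 20.7 CPM in Ov GDX and from 2.44 to 32.4 CPM in Te GDX mice, and Slco1a4 from 119 to 254 CPM and from 105 to 218 CPM. Abcg2 ranged from 38.0 to 80.4 CPM and from 36.5 to 89.4 CPM. The arms overlapped in each of the 9 genes, and they did not in 0.0260% of all genes.

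**Figure D3:**
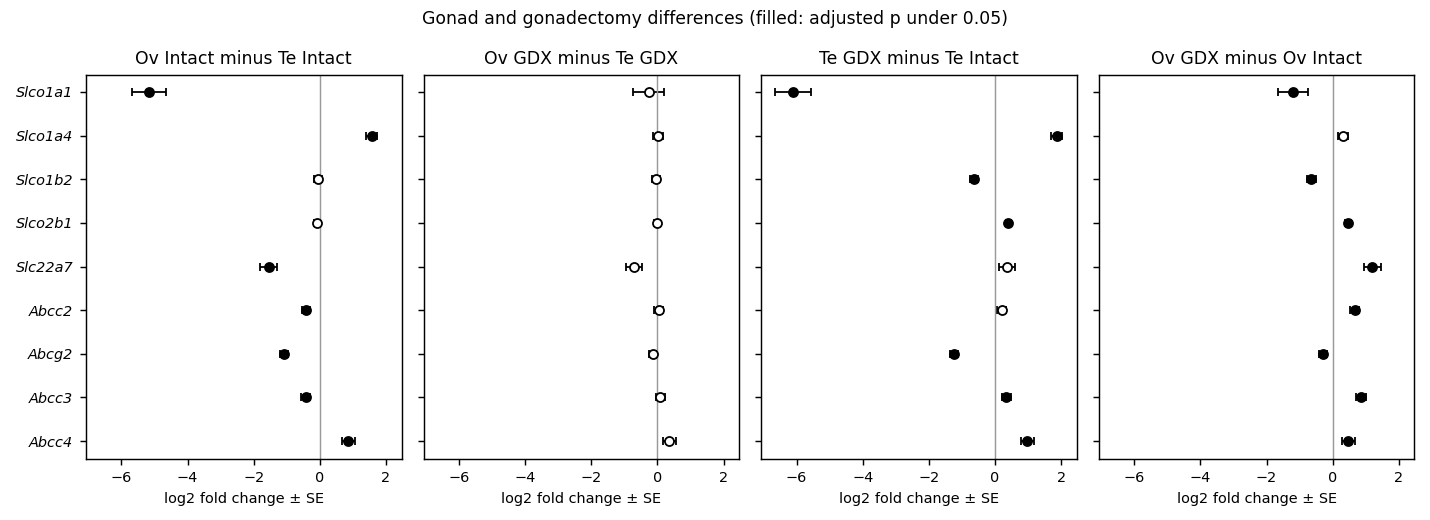
Log2 fold changes of the 9 transporters with their SE in 4 comparisons of 12 against 12 mice, with filled points where the adjusted p was under 0.05. Slco1a1 lies at -5.17 in the comparison of Intact gonads and at -6.10 after castration, and no point is filled in the comparison of GDX mice.

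For the castration effect, 12 Te GDX mice were set against 12 Te Intact mice, and for the ovariectomy effect the 12 mice of Ov GDX against those of Ov Intact. Castration was accompanied by lower Slco1a1, Abcg2 and Slco1b2 and by higher Slco1a4, Slco2b1, Abcc3 and Abcc4, with 7 of 9 called, and ovariectomy by lower Slco1a1, Slco1b2 and Abcg2 and by higher Slc22a7, Slco2b1, Abcc2, Abcc3 and Abcc4, with 8 of 9 called. These shares stand beside 63.3% of all genes tested after castration (33.4% higher and 29.9% lower in GDX mice) and 69.4% after ovariectomy (36.0% higher and 33.4% lower), so the counts themselves are close to the background, and what distinguishes genes is the size of the change. The median log2 fold change of the 9 was 0.35 after castration and 0.47 after ovariectomy, beside 0.07 and 0.06 over all genes. The castration effect shares its Te Intact mice, and the ovariectomy effect its Ov Intact mice, with the gonadal effect.

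The castration effect exceeded a log2 value of 1 in size for 3 transporters. Slco1a1 ranged from 2.44 to 32.4 CPM in Te GDX mice, and 10 of the 12 Te Intact mice lay above all of them (log2 fold change -6.10 ± 0.54, adjusted p = 2.84e-12). Slco1a4 ranged from 105 to 218 CPM (median 155) in Te GDX against 17.9 to 74.8 CPM (median 44.6) in Te Intact mice and did not overlap (log2 fold change 1.87 ± 0.17, adjusted p = 3.92e-12). Abcg2 ranged from 36.5 to 89.4 CPM (median 58.2) against 107 to 179 CPM (median 136), again without overlap (log2 fold change -1.25 ± 0.12, adjusted p = 9.92e-12). Arms that did not overlap were seen in 2 of the 9 transporters and in 4.81% of all genes tested. After ovariectomy the same 3 genes moved less. The log2 fold change was -1.20 ± 0.46 for Slco1a1 (adjusted p = 0.0202), -0.29 ± 0.11 for Abcg2 (adjusted p = 0.0220) and 0.32 ± 0.16 for Slco1a4 (adjusted p = 0.0759). The Slco1a1 value rested on XY Ov Intact mouse 53085, without which it was -0.55 (adjusted p = 0.235). Its call was also lost with 1 surrogate variable (-1.17, adjusted p = 0.0642). The Abcg2 call was lost in 4 of the 48 fits without 1 mouse, with library totals (-0.04), in a fit of the Ov arms alone and with 1 surrogate variable (0.035). Slco1a4 passed with library totals (0.56, adjusted p = 0.00113), with the stricter filter, without the 3 mice least like their group and in 2 of the 48 fits without 1 mouse.

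Whether castration and ovariectomy differed in their effects was tested itself, which is the same test as whether the gonadal difference of Intact mice changed in GDX mice. The test passed for the 3 genes, at -4.91 ± 0.66 for Slco1a1 (adjusted p = 1.62e-06), 1.55 ± 0.23 for Slco1a4 (adjusted p = 8.51e-06) and -0.96 ± 0.16 for Abcg2 (adjusted p = 9.78e-05), beside 5.60% of all genes tested, and all 3 passed under each alternative run and with each mouse left out. The other 6 did not pass, with adjusted p from 0.121 for Abcc2 to 0.9999 for Slco1b2. For Slc22a7, Abcc2, Abcc3 and Abcc4 a change of the gonadal difference after GDX is therefore not shown. Without XX Ov Intact mouse 69572, 5 passed, since Abcc2 and Abcc3 then also did, and without 1 XY Te Intact mouse Abcc2 did.

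Slco1b2 and Slco2b1 passed in both comparisons of GDX with Intact mice. Slco1b2 was lower in GDX mice, at 858 to 1578 CPM in Ov GDX and 980.1 to 1630.4 CPM in Te GDX mice, against medians of 1691 CPM in Ov Intact and 1962 CPM in Te Intact mice. Its log2 fold change was -0.64 ± 0.12 in each case (adjusted p = 1.67e-05 after ovariectomy and 2.38e-05 after castration). Slco2b1 was higher, at 151 to 209 CPM in Ov GDX and 134 to 218 CPM in Te GDX mice, with log2 fold changes of 0.47 ± 0.09 and 0.40 ± 0.09 (adjusted p = 7.19e-06 and 9.49e-05). The test of castration against ovariectomy did not pass for either gene, at -0.07 ± 0.12 for Slco2b1 (adjusted p = 0.756) and 0.00 for Slco1b2 (adjusted p = 0.9999).

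Slc22a7 and Abcc2 passed after ovariectomy and not after castration, a contrast for which the test of the difference did not pass. Slc22a7 ranged from 5.63 to 13.9 CPM in Ov GDX mice, with 7 of the 12 above every Ov Intact mouse (log2 fold change 1.19 ± 0.26, adjusted p = 8.39e-05), and from 6.44 to 29.6 CPM in Te GDX mice (0.36 ± 0.24, adjusted p = 0.194). Abcc2 ranged from 519 to 1023 CPM in Ov GDX mice (0.66 ± 0.13, adjusted p = 2.18e-05) and from 553 to 971 CPM in Te GDX mice (0.20 ± 0.13, adjusted p = 0.176). Both castration values passed when libraries were scaled by their totals alone (adjusted p = 0.0390 and 0.0235).

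The basolateral exporters were higher in GDX mice. Abcc3 ranged from 267 to 510.0 CPM in Ov GDX mice (log2 fold change 0.87 ± 0.15, adjusted p = 2.31e-06) and from 215 to 501 CPM in Te GDX mice (0.35 ± 0.15, adjusted p = 0.0384), and the castration call was lost in 14 of the 48 fits without 1 mouse (adjusted p up to 0.0809). Abcc4 ranged from 6.46 to 13.9 CPM in Ov GDX mice (0.47 ± 0.19, adjusted p = 0.0249) and from 3.07 to 14.6 CPM in Te GDX mice (0.97 ± 0.20, adjusted p = 4.83e-05). The ovariectomy call for Abcc4 was lost with 1 surrogate variable (0.20, adjusted p = 0.407) and in 2 of the 48 fits without 1 mouse. Of all genes tested, 69.4% passed after ovariectomy and 63.3% after castration. The shares of immune and bile duct cell markers that passed were below these, except for the neutrophil markers. After ovariectomy 3 of 5 cholangiocyte markers were higher, and 3 of 5 Kupffer cell, 3 of 3 neutrophil and 2 of 4 lymphocyte markers were lower. After castration 2 of 5 cholangiocyte markers were higher and 1 lower, 1 of 5 Kupffer cell and 2 of 3 neutrophil markers were lower, and 1 of 4 lymphocyte markers was higher. Their part in the exporter values was not tested. With library totals in place of scaled sizes, the median log2 fold change of all genes moved from 0.06 to 0.27 after ovariectomy and from 0.07 to 0.27 after castration, and the share of called genes that were higher in GDX mice went from 51.9% to 66.1% and from 52.7% to 69.5%. In the gonadal effect that share went from 55.6% to 68.1% higher in Ov Intact mice.

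XX and XY mice were compared to ask which transporters differ with the sex chromosomes. Over all 48 mice, Abcc3, Abcg2, Abcc2, Slco1a4, Slco1b2 and Slco2b1 were higher in XX mice and none was lower, 6 of 9 beside 36.7% of all genes tested (21.9% higher and 14.8% lower in XX). The log2 fold changes were 0.54 ± 0.10 for Abcc3 (adjusted p = 4.38e-05), 0.38 ± 0.08 for Abcg2 (1.89e-04) and between 0.23 and 0.35 for the other 4. With library totals 2 of 9 passed, Abcc3 and Abcg2, and the share of called genes that were higher in XX mice went from 59.8% to 28.1%. The Slco1b2 call was also lost without XX Ov Intact mouse 97856 (0.15, adjusted p = 0.161), without the 3 mice least like their group (0.13, adjusted p = 0.239), with either other filter and by the Wald test of DESeq2 (adjusted p = 0.0524), and the Slco1a4 call with the looser filter and in 2 of the 48 fits without 1 mouse. The values within the Intact and GDX cohorts follow.

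Among the 24 GDX mice, 6 of 9 were higher in XX and none lower, beside 34.3% of all genes tested (19.5% higher and 14.8% lower). Abcc3 had no overlap, with 380.5 to 510.0 CPM (median 468) in XX and 215 to 329 CPM (median 304) in XY GDX mice, and a log2 fold change of 0.62 ± 0.15 (adjusted p = 7.63e-04). Abcg2 had none either, with 59.1 to 89.4 CPM (median 70.5) in XX and 36.5 to 50.3 CPM (median 42.7) in XY GDX mice, and a log2 fold change of 0.74 ± 0.12 (adjusted p = 1.39e-06). Arms without overlap were seen in 2 of 9 transporters and in 8.06% of all genes. Slco1b2 ranged from 1205 to 1630.4 CPM in XX and from 858 to 1261 CPM in XY GDX mice (0.36 ± 0.12, adjusted p = 0.0192), Slco2b1 from 165 to 218 CPM and from 134 to 189.7 CPM (0.27 ± 0.09, adjusted p = 0.0133) and Abcc2 from 679 to 1023 CPM and from 519 to 925 CPM (0.40 ± 0.13, adjusted p = 0.0123). Slco1a1, which was low in all GDX mice, ranged from 3.85 to 32.4 CPM in XX and from 2.44 to 6.06 CPM in XY GDX mice (1.48 ± 0.47, adjusted p = 0.0120). With library totals 3 of 9 passed (Abcc3, Abcg2 and Slco1a1), and without a filter beyond 1 count 2 of 9 (Abcc3 and Abcg2). The calls for Slco1b2 and Slco2b1 were also both lost in 3 of the 48 fits without 1 mouse.

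Libraries of XX and XY GDX mice also differed in make-up. The scaling factors ranged from 0.946 to 1.07 in XX and from 1.07 to 1.24 in XY GDX libraries, and reads outside genes from 8.52% to 10.1% and from 9.98% to 11.3%. With library totals the median of all genes moved from 0.08 to -0.10 and the share of called genes higher in XX from 56.8% to 18.7%. Bile duct cells also express Abcc3, and 3 of 5 cholangiocyte markers were higher in XX GDX mice, with sums of 33.0 to 142 CPM against 20.3 to 38.9 CPM. The defining marker Krt19 did not pass (log2 fold change 0.54 ± 0.32, adjusted p = 0.189). None of Krt19, Krt7, Epcam and Sox9 exceeded 5.28 CPM in a GDX mouse, so the higher sums were mostly Spp1. Of 5 Kupffer cell markers 4 were lower in XX GDX mice, with sums of 126 to 308 CPM against 249 to 715 CPM, and of 4 lymphocyte markers 4 were lower, with sums of 1.10 to 4.27 CPM against 2.65 to 7.33 CPM. Of 3 neutrophil markers 3 were lower, with sums of 0.0787 to 1.85 CPM against 1.14 to 66.9 CPM. The part of library make-up and of these cells in the XX and XY values was not tested.

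**Figure D4:**
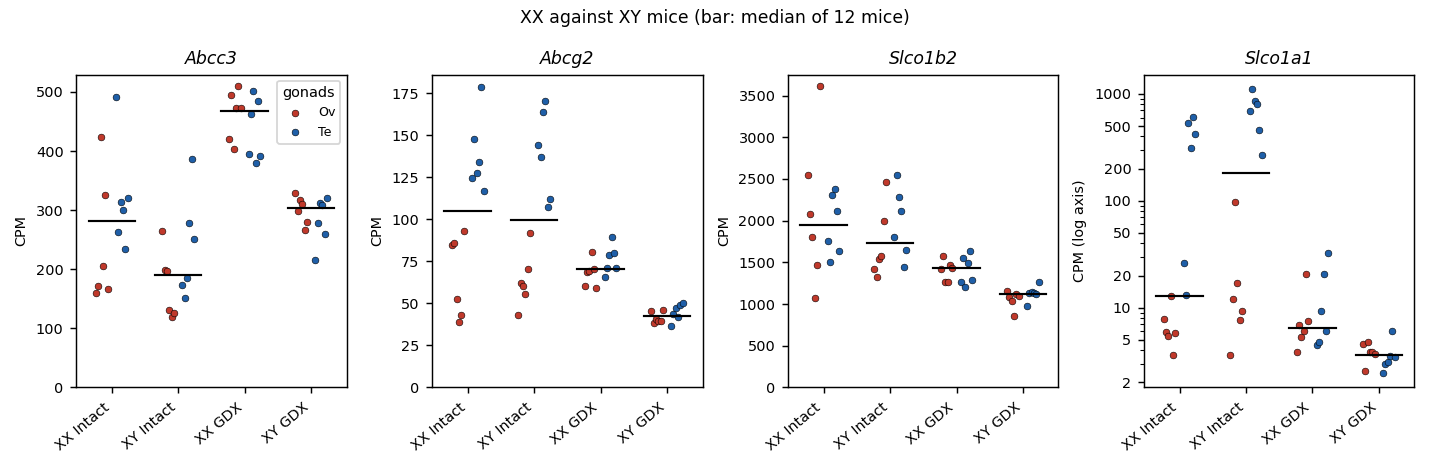
Abcc3, Abcg2, Slco1b2 and Slco1a1 in CPM by sex chromosomes and surgery (Slco1a1 on a log axis), with points for single mice (red Ov, blue Te) and bars for medians of 12 mice. In GDX mice the Abcc3 and Abcg2 points of XX and XY mice do not overlap.

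Among the 24 Intact mice, 3 of 9 passed, beside 10.7% of all genes tested (4.27% higher and 6.42% lower in XX). Slco1a4 and Abcc3 were higher in XX mice, by 0.54 ± 0.16 and 0.46 ± 0.15 on the log2 scale (adjusted p = 0.0223 and 0.0348), and Slco1a1 was lower, by -1.48 ± 0.44 (adjusted p = 0.0216). The arms overlapped in each of the 9 genes, and they did not in 0.0649% of all genes. Slco1a1 ranged from 3.61 to 601 CPM in XX Intact and from 3.61 to 1115 CPM in XY Intact mice, Slco1a4 from 40.7 to 171 CPM and from 17.9 to 177 CPM, and Abcc3 from 159.9 to 491 CPM and from 119 to 386 CPM. None of the 3 passed when the Intact mice were fitted on their own or without a filter beyond 1 count. Without XX Te Intact mouse 11587, 1 of 9 passed, Slco1a1, and the Abcc3 call was lost in 9 of the 48 fits without 1 mouse. Without XY Ov Intact mouse 53085 the Slco1a1 value was -0.83 (adjusted p = 0.182). Of 3 neutrophil markers 3 were lower in XX Intact mice, with sums of 1.52 to 28.4 CPM against 4.44 to 781 CPM, and of 5 Kupffer cell markers 2 were lower, with sums of 205 to 652 CPM against 271 to 963 CPM, while 0 of 4 lymphocyte and 0 of 5 cholangiocyte markers passed. The part of these cells in the values was not tested.

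Whether the XX and XY difference itself differed between GDX and Intact mice was tested as an interaction, which 2 of 9 transporters passed, beside 2.12% of all genes. Slco1a1 was lower in XX Intact but higher in XX GDX mice, a difference of 2.96 ± 0.65 on the log2 scale (adjusted p = 0.0133). Abcg2 differed by 0.02 ± 0.11 between XX and XY Intact mice and by 0.74 ± 0.12 between XX and XY GDX mice, a difference of 0.71 ± 0.16 (adjusted p = 0.0155). Both passed under each alternative run and with each mouse left out. The cohorts differ in surgery, weeks of HFD, age and library make-up, which cannot be told apart here.

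Beyond the 9, a further 63 genes of transport and its control were followed in 4 lists, of which 55 were tested. In the gonadal effect, 2 of 16 other uptake carriers were higher and 4 lower with ovaries, 3 of 17 other efflux carriers higher and 4 lower, 4 of 15 transcriptional regulators higher and 5 lower, and 1 of 7 targets of xenobiotic receptors higher and 1 lower. Of all genes tested, 25.3% passed, 14.1% higher and 11.3% lower in Ov Intact mice. The median log2 fold changes of these lists were -0.10, 0.01, -0.08 and -0.01, beside 0.04 over all genes. The widest differences among the 55 belonged to relatives of Slc22a7 and to growth hormone-responsive factors. Slc22a26, an organic anion transporter of a rodent Slc22 gene cluster, ranged from 39.5 to 194 CPM in Ov Intact and from 0.390 to 13.0 CPM in Te Intact mice (log2 fold change 4.86 ± 0.33, adjusted p = 2.25e-15). Slc22a27 ranged from 44.7 to 222 CPM and from 1.09 to 28.8 CPM (2.93 ± 0.25, adjusted p = 1.29e-12). Slc22a28 ran the other way, with 0 to 1.82 CPM and 3.38 to 29.2 CPM (-4.29 ± 0.36, adjusted p = 8.16e-13). In none of the 3 did the arms overlap, beside 0.597% of all genes tested, but these genes were picked for their wide differences.

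The regulators with the widest differences were Cux2 and Bcl6, repressors known to mark female and male liver. Cux2 ranged from 3.29 to 77.9 CPM in Ov Intact and from 0.215 to 2.17 CPM in Te Intact mice (log2 fold change 5.31 ± 0.44, adjusted p = 6.06e-13), and Bcl6 from 7.29 to 19.4 CPM and from 15.1 to 89.5 CPM (-1.72 ± 0.24, adjusted p = 3.86e-07). After castration, Cux2 was 13.3 to 87.4 CPM (6.04 ± 0.44, adjusted p = 1.82e-14), Slc22a26 was 28.6 to 202 CPM (4.83 ± 0.33, adjusted p = 2.87e-15) and Slc22a28 was 0.314 to 3.15 CPM (-4.08 ± 0.35, adjusted p = 1.37e-12). After ovariectomy, the widest called changes were those of the drug pump Abcb1a, at 13.7 to 29.3 CPM in Ov GDX against 3.91 to 18.6 CPM in Ov Intact mice (1.45 ± 0.19, adjusted p = 2.01e-08), of Slc22a27, at 26.4 to 50.8 CPM (-1.37 ± 0.23, adjusted p = 1.82e-06), and of the aryl hydrocarbon receptor target Cyp1a1, at 0.118 to 1.12 CPM against 0.343 to 2.11 CPM (-1.33 ± 0.30, adjusted p = 1.76e-04). Cyp1a1 had a median of 0.361 CPM in Ov GDX mice, and its lowest value lay under the floor of at most 0.230 CPM. In the comparison of GDX mice by former gonad, 0 of the 55 passed, beside 0.0908% of all genes tested.

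The genes whose log2 CPM ran most like that of each transporter over the 48 mice are given as a description, chosen by the highest Pearson r among 12857 genes. The mice share groups, cohort and library make-up, so a high r can reflect any of these. For Slco1a1 they were the major urinary protein gene Mup11 and Slc22a28 (r = 0.94 for each), for Slco1a4 the flavin monooxygenase Fmo2 and the cytochrome Cyp2a22 (0.94 and 0.93), for Abcg2 Mup20 and the carboxylesterase Ces2c (0.91 for each) and for Slc22a7 Mug1 and Irf2 (0.82 and 0.78). Abcc4 ran most like Il2rb, a receptor of lymphocytes, and Endod1 (0.81 and 0.79). Taken as deviations from the group means, r was 0.68 and 0.72 for Slco1a1, 0.83 and 0.63 for Slco1a4, 0.50 and 0.76 for Abcg2, 0.57 for both partners of Slc22a7, and 0.61 and 0.66 for Abcc4. For the remaining transporters the values within groups stayed at 0.80 or above. The partners were Nudt12 and Hibch for Slco1b2 (0.96 and 0.95, within groups 0.92 for each), the glucose transporter Slc2a2 and Ces2g for Slco2b1 (0.93 for each, within groups 0.84 and 0.80), Usp24 and Cobll1 for Abcc2 (0.95 for each, within groups 0.91 for each), and Aplp2 and Iars2 for Abcc3 (0.97 and 0.96, within groups 0.92 and 0.93).

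Among the 36 pairs of the 9 transporters, Abcc2 and Abcc3 ran most alike, with r = 0.90 over the 48 mice and 0.79 within groups. Slco1a1 and Slco1a4 ran most against each other over the 48 mice (r = -0.86), and within groups r was -0.29. Slco1a1 and Abcg2 had r = 0.81 over all mice and 0.14 within groups, so that within groups little of it was left. Slco1b2 and Abcg2 had r = 0.74 over all mice and 0.73 within groups.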

How the data were processed

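Liver mRNA of 48 mice was sequenced, 1 library per mouse. The authors deposited 1 table of read counts per gene, as whole numbers without normalization. The submitters' processing notes name STAR 2.7.10a, the genome build GRCm39 and DESeq2 1.36.0. The annotation release, strand setting and read trimming are not given in the sources used here. Of 55414 gene IDs, 31020 were matched to a symbol. The 4 summary lines of the table (30.942% of all its reads) were left out of library sizes and tests, and 0 columns were left unmapped. Those lines include reads matching several places (11.7%) and reads ambiguous between genes (3.03%). Such reads were counted for no gene, so counts of overlapping or near-identical genes may be too low.

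Reads on genes ranged from 13071874 to 20045141 per mouse. Any pair of libraries of 1 group differed beyond sampling noise (120 pairs, chi-square per gene 5.36 to 199), and each was counted as a replicate. Counts were scaled by the trimmed mean of M values, filtered with filterByExpr (15414 genes) and fitted with 8 group means by the robust quasi-likelihood method of edgeR 4.0.16 in R 4.3.3, two-sided, with Benjamini-Hochberg adjustment over all genes tested and a threshold of 0.05. Differences are the first group minus the second. Likeness used log2 CPM with a prior count of 2.

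The genes named beside the 9 were the 5 widest called differences of the gonadal effect and the 3 widest of the castration and of the ovariectomy effect in 4 lists, and the 2 genes most like each transporter. The members and lists were chosen with earlier results of these data known. Alternatives were size factors and the Wald test of DESeq2 1.42.0, library totals, a looser filter (1 count or more over all mice) and a stricter filter (10 counts or more in each mouse), fitting the compared arms on their own, a surrogate variable (sva 3.50.0), leaving out 1 mouse that the study's plots of another gene lack, and leaving out each mouse in turn. Leaving out the 3 mice least like their group was added after the data were seen. The fitting steps were tested on simulated data. Promoter sequences are RefSeq's (GRCm38.p6), found for 7 of the 9 genes. A gene of the marker lists is not reported here.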

Additional observations from a re-analysis of the deposited data

Results flagged for a closer look

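Of 72 sets of 6 mice (9 transporters in 8 groups), 8 held a mouse far from the rest by Dixon's test at the 95% level. The test was run on CPM and not on log values. Its rate of about 1 in 20 by chance holds for normally distributed values, which was not tested, so the count cannot be set against that rate. Every marked value but that of Abcc4 was on the high side. XY Ov Intact mouse 53085 was high for both Slco1a1 (96.9 CPM) and Slc22a7 (6.85 CPM), carriers that were higher in Te Intact than in Ov Intact mice. That mouse also had the highest kidney marker sum of the Ov Intact mice, at 4.69 CPM beside a median of 0.111 CPM. The part of kidney RNA in its values was not tested. XY Ov GDX mouse 19562 was high for both Slco1a4 (182 CPM) and Slco2b1 (182 CPM). Slco1a1 was high in XX Ov GDX mouse 70608 (20.7 CPM) and in XY Te GDX mouse 59091 (6.06 CPM). The value of 59091 lay within the range of Ov Intact mice. That of 70608 lay above every Ov Intact mouse but 53085, since the next highest was at 17.1 CPM. Abcc3 was high in XX Te Intact mouse 11587 (491 CPM), which was also 1 of the 2 XX Te Intact mice with low Slco1a1. Abcc4 was low in XY Ov GDX mouse 88616 (6.46 CPM).

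Effects that differed between groups by a test of the difference itself (edgeR's quasi-likelihood test) were those of castration against ovariectomy on Slco1a1 (-4.91 on the log2 scale), Slco1a4 (1.55) and Abcg2 (-0.96), and those of the sex chromosomes in GDX against Intact mice on Slco1a1 (2.96) and Abcg2 (0.71).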

How the results depend on the processing

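The number of transporters called stayed within 1.5 times the reported number in 81 recomputed counts and moved further in 6, and for the gonadal effect within XX and within XY mice, counted apart, it moved further in 2. With library totals the chromosomal effect called 2 in place of 6 and that in GDX mice 3 in place of 6. Without a filter beyond 1 count the chromosomal effect called 0 in place of 3 in Intact mice and 2 in place of 6 in GDX mice. In a fit of the compared arms alone, the chromosomal effect in Intact mice called 0, and the gonadal effect in XX mice called 3 in place of 5, as it did without the mouse absent from the study's plots. With 1 surrogate variable the ovariectomy effect called 5 in place of 8, and 1 value changed sign, that of Abcg2 (0.035, adjusted p = 0.764). The causes were not tested. Over the fits without 1 mouse, the counts ranged from 6 to 7 for the gonadal effect (3 to 6 in XX and 4 to 6 in XY mice), 6 to 9 for ovariectomy, 6 to 7 for castration, 3 to 5 for their difference, 4 to 6 for the chromosomal effect, 1 to 4 in Intact and 4 to 6 in GDX mice, and were 2 for the chromosomal interaction with GDX and 0 for the gonadal interaction and for gonad type after GDX. Slco1a1 ranged from -5.82 to -5.03 in the gonadal and from -6.36 to -5.96 in the castration effect. No paired analysis was possible because the labels give each mouse its own number and no number is shared between groups. Read depth limits Slc22a7, Abcc4 and Slco1a1 most, with as few as 22, 31 and 42 reads in a mouse.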
